A study of Mus musculus with 6 samples.

Results

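Messenger RNA of 9 membrane carrier genes was followed in mouse bone marrow cells grown with and without extra potassium chloride. They are 3 organic anion carriers of the SLCO family (Slco4a1, Slco3a1 and Slco2b1) and 6 exporters of the ATP-binding cassette (ABC) superfamily (Abcc1, Abcc3, Abcc4, Abcc5, Abcb1b and Abcg2). The 9 genes were chosen by symbol, with the measured difference between the KCl and control libraries already known, from a table of 19162 genes, and all 9 were found in it once. Their difference between the groups is therefore given as a description, without a test.

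Bone marrow cells of C57BL/6J mice were kept in 40 ng/mL GM-CSF, a growth factor for granulocytes and macrophages, for 4 days. The control group had no further addition and the KCl group had 34.7 mM of added KCl. Both groups received GM-CSF, and no osmotic control was among the samples analysed here. The series calls the cultures bone marrow-derived suppressor cells, and the labels give no sorting step, so each library is RNA from the whole culture. Each group held 3 libraries, numbered 1, 2 and 4 in the titles, and the labels do not say whether they came from separate mice or separate cultures. P-values then set the group difference only against the spread of these samples, and that spread may be technical.

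Library totals ranged from 14118724 to 21694831 counts. In the deposited counts, control 4 and KCl 4 together track the average of the other 4 libraries and are not independent of them. Over the 8231 genes whose mean count reached 300, the log2 ratio of the mean of this pair to the mean of the other 4 had an SD of 0.0095, against 0.044 from counting noise and 0.123 to 0.262 for the 14 other ways to pick a pair. For 8 of the 9 carriers the pair mean was 0.975 to 1.01 times the mean of the other 4 libraries. These ratios used library sizes scaled by TMM and the SD used raw totals, so the 2 measures differ. The ratio was 0.841 for the scarce Slco2b1. P-values, SEs and intervals from all 6 libraries may be too small for this reason. CPM is the count relative to library size, scaled by TMM. Myeloid identity genes were abundant, as 8 of 8 tested summed to 9260 to 11200 CPM in control and 14100 to 17200 in KCl. In edgeR's test 5 of them rose and 0 fell, beside 12.4% and 10.5% of all tested genes. Without both replicate 4 libraries 0 were called. Erythroid markers summed to 2.84 to 4.85 CPM in control and 4.08 to 4.37 in KCl, and lymphocyte markers to 10.2 to 13.4 and 12.7 to 18.8.

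SLCO proteins carry amphipathic organic anions across the plasma membrane without using ATP, among them thyroid hormones, steroid sulfates and prostaglandins, and are mostly known as uptake carriers. ABC exporters use ATP to push substrates out of the cell. The ABCC (multidrug resistance-associated) proteins move organic anions such as glutathione conjugates, leukotriene C4, glucuronides and cyclic nucleotides. The ABCB1 and ABCG2 proteins move hydrophobic drugs and, in the case of ABCG2, urate and porphyrins. In myeloid cells these exporters are known for the release of lipid mediators and for resistance to drugs.

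All 9 genes are protein-coding in GENCODE M21 on mm10 (GRCm38), and the values are for whole genes. Slco4a1 (ENSMUSG00000038963) lies on chromosome 2 from 180456245 to 180474867 on the plus strand. Slco3a1 (ENSMUSG00000025790, 74275419 to 74554780) and Slco2b1 (ENSMUSG00000030737, 99657804 to 99711340) lie on the minus strand of chromosome 7. Abcc1 (ENSMUSG00000023088, 14361558 to 14475737, plus strand) and Abcc5 (ENSMUSG00000022822, 20331303 to 20426394, minus strand) share chromosome 16. Abcc3 (ENSMUSG00000020865) lies on chromosome 11 from 94343295 to 94392997 and Abcc4 (ENSMUSG00000032849) on chromosome 14 from 118482692 to 118706219, both on the minus strand. Abcb1b (ENSMUSG00000028970) lies on chromosome 5 from 8798147 to 8866315 and Abcg2 (ENSMUSG00000029802) on chromosome 6 from 58584523 to 58695676, both on the plus strand.

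The RefSeq promoter table (GRCm38.p6) held 12 start sites of 6 of the 9 genes, namely Slco4a1, Slco2b1, Abcc4, Abcc5, Abcb1b and Abcg2. The 250 bases before each start were searched on both strands for 3 short motifs. They were the core of the antioxidant response element bound by NRF2 (TGACNNNGC), the core bound by NFAT proteins including NFAT5 (TGGAAA), and the core shared by the aryl hydrocarbon receptor and hypoxia-inducible factors (GCGTG). The windows of 3 genes are shown because they belong to the carrier with the largest rise in level (Slco4a1), to an exporter whose level more than doubled (Abcb1b) and to an exporter whose level was close in both groups (Abcc4). Motif matches on either strand are in capitals, with no overlap between different motifs, and each window is written 5' to 3' on the gene's strand and ends 1 base before the start.

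Slco4a1, chr2:180455995-180456244, plus strand: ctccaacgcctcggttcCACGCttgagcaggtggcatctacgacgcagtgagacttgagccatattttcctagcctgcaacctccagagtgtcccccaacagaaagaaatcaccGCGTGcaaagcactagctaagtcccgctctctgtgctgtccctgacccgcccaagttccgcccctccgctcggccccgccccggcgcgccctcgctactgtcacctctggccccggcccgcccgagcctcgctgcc

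Abcb1b, chr5:8797897-8798146, plus strand: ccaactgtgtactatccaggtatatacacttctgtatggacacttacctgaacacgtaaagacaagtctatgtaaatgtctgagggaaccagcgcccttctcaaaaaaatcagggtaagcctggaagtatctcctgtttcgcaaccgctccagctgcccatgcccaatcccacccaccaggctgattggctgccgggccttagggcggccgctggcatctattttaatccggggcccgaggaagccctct

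Abcc4, chr14:118706220-118706469, minus strand: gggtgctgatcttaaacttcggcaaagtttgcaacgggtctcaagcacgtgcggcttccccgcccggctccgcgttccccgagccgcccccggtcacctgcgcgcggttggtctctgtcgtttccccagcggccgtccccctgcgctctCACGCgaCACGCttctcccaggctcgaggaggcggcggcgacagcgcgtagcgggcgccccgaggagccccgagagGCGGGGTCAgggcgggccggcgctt

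The Slco4a1 window had a GCGTG match on each strand, and its second start, which lies inside the gene, had 2 on the opposite strand. The Abcb1b window had no match to the 3 motifs. The Abcc4 window had an antioxidant response element match 17 to 25 bases before the start and 2 GCGTG matches. At least 1 window matched TGACNNNGC in 1 gene of the 6 (Abcc4), TGGAAA in 2 (Slco2b1 and Abcc4) and GCGTG in 2 (Slco4a1 and Abcc4). By window, 2, 3 and 3 of the 12 held a match. Among 32851 promoter windows of this length in the table, 10.2% held TGACNNNGC, 18.6% held TGGAAA and 28.2% held GCGTG. The Slco4a1 and Abcc4 windows had 64.8% and 72% G or C, above the median of 52.4% over all windows, and the Abcb1b window had 52.8%.

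Slco4a1, which takes up thyroid hormones, prostaglandins and steroid sulfates, showed the largest difference in level of the 9. Its level per length, given as the authors' FPKM (fragments per length of transcript and sequencing depth), was 10.5, 10.4 and 13.2 in control 1, 2 and 4 and 56.4, 52.2 and 51.1 in KCl 1, 2 and 4. The groups lay far apart, with control 4 the highest of the controls and KCl 4 the lowest of the KCl libraries. On the CPM scale the mean was 4.76 times higher in KCl, and the log2 fold change was 2.25 ± 0.11 (SE, n = 3 per group). Without control 4 and KCl 4 it was 2.41.

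Slco3a1, a widely expressed prostaglandin and thyroxine carrier, had FPKM values of 4.09, 3.98 and 3.99 in control 1, 2 and 4 and 4.75, 4.15 and 4.45 in KCl 1, 2 and 4. The lowest KCl library stood just above the highest control. The log2 fold change was 0.17 ± 0.06. Slco2b1, a carrier of steroid sulfates and statins, was close to undetected, at 0, 13 and 3 counts in the controls and 25, 12 and 16 counts under KCl. It passed the filter on low counts only through the KCl libraries. Summed over libraries, the ratio of KCl to control was 3.43, with an exact 95% interval of 1.93 to 6.43 that covers counting error only. Its log2 fold change of 1.78 ± 0.78 was 3.38 without control 2 and 1.15 without control 1. Slco2b1 shares 471 exonic bases with Gm15635 on the opposite strand, which was not analysed here, and whether the counting used strand is not given in the sources used here.

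Slco4a1 made up 71.9% to 76.6% of the summed SLCO FPKM in control and 91.8% to 92.5% in KCl. The SLCO sum was 14.4 to 17.2 FPKM in control and 55.7 to 61.3 in KCl.

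**Figure D1:**
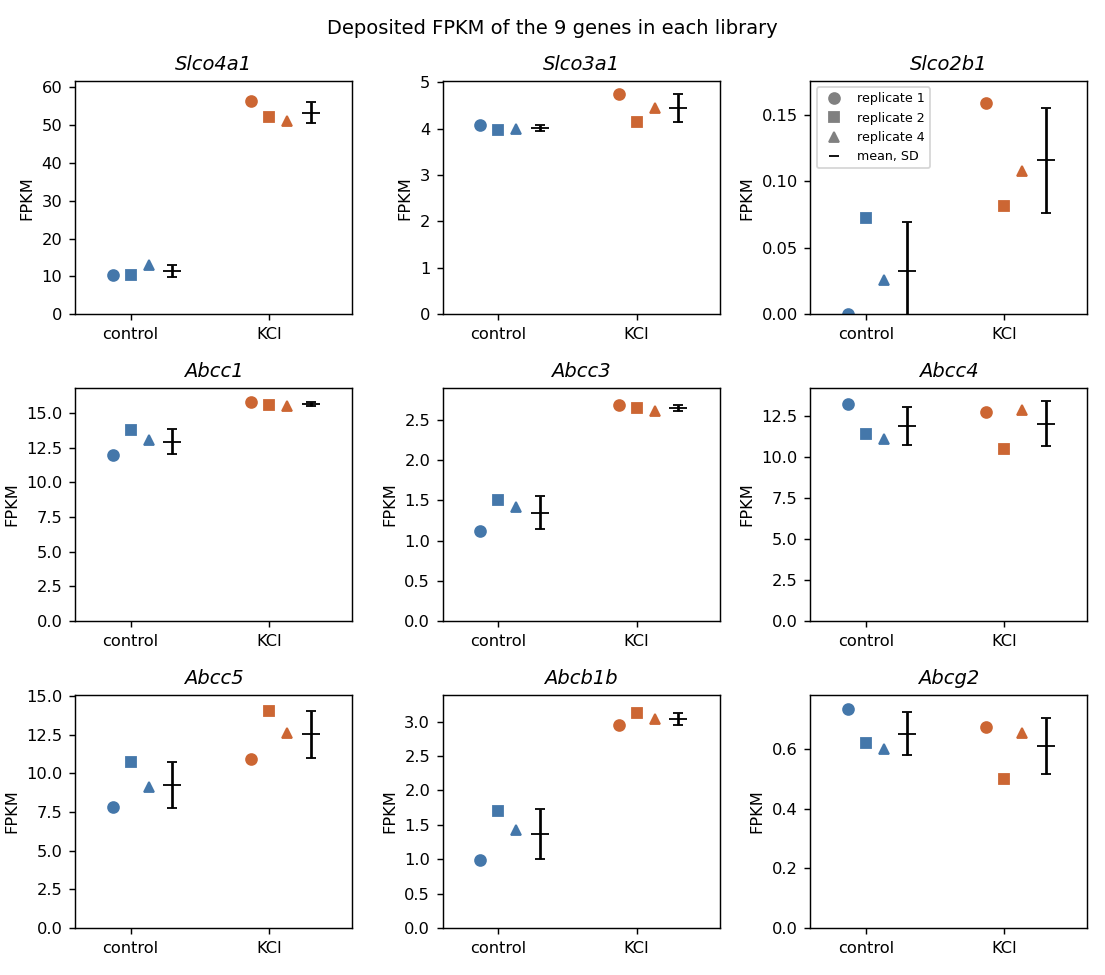
Deposited FPKM (vertical axes, each from 0 and on its own scale) of the 9 genes in the control and KCl libraries, with point shape giving the replicate number and the bar beside each group giving mean and SD of 3 libraries. Slco4a1 stood at 10.4 to 13.2 in control and 51.1 to 56.4 in KCl, while the groups of Abcc4 and Abcg2 overlapped.

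Abcc1 encodes the exporter of leukotriene C4 and glutathione conjugates (MRP1). Its FPKM was 12.0, 13.8 and 13.1 in control 1, 2 and 4 and 15.8, 15.6 and 15.5 in KCl 1, 2 and 4. All KCl libraries lay above the controls and were closer together, with a coefficient of variation in CPM of 2.58% against 7.13%. The log2 fold change was 0.30 ± 0.06.

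Abcc3 encodes an exporter of glucuronides and bile salts (MRP3). It was a low-level gene, at 1.117, 1.505 and 1.422 FPKM in control and 2.68, 2.65 and 2.61 in KCl. Its mean CPM was 1.99 times higher in KCl, with no overlap between groups, and the log2 fold change was 1.00 ± 0.12.

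Abcc4 encodes an exporter of cyclic nucleotides and prostaglandins (MRP4). Its FPKM was 13.2, 11.4 and 11.1 in control and 12.7, 10.5 and 12.9 in KCl, so that the groups overlapped throughout. The log2 fold change was 0.04 ± 0.10, with an approximate 95% interval from -0.15 to 0.22, and it turned to -0.05 without control 4 and KCl 4.

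Abcc5 encodes an exporter of cyclic nucleotides (MRP5). It varied more within groups, at 7.85, 10.8 and 9.13 FPKM in control and 10.92, 14.01 and 12.64 in KCl. The highest control, control 2, almost reached the lowest KCl library, KCl 1. The log2 fold change was 0.46 ± 0.15.

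Abcb1b encodes 1 of the paralogous mouse P-glycoproteins, which expel hydrophobic drugs. Its counts were 202, 364 and 200 in control and 553, 551 and 540 in KCl, or 0.982, 1.69 and 1.43 FPKM against 2.95, 3.12 and 3.04. Control 1 was the lowest library and all KCl libraries lay above all controls. The mean CPM was 2.25 times higher in KCl and the log2 fold change was 1.17 ± 0.19. The coefficient of variation in CPM was 26.5% in control and 5.26% in KCl. The paralog Abcb1a, which was not among the 9, is close in sequence, so reads may have been split between the pair. Its counts were 19, 27 and 16 in control and 52, 41 and 43 in KCl, below those of Abcb1b in every library. Abcb1b also shares 143 exonic bases with Gm5106 on the opposite strand, whose mean level was 0.0734 CPM.

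Abcg2 encodes the half-transporter that expels urate, porphyrins and dyes and marks the side population of blood stem cells. It stood at 0.735, 0.623 and 0.600 FPKM in control and 0.674, 0.502 and 0.654 in KCl. The groups overlapped, with a log2 fold change of -0.08 ± 0.14 and an approximate 95% interval from -0.35 to 0.19. It was 0.0038 without control 1 and 0.02 without KCl 2.

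The log2 fold changes of the 9 genes ranged from -0.08 (Abcg2) to 2.25 (Slco4a1), with a median of 0.46 against -0.0045 over all tested genes. In edgeR's quasi-likelihood test across all genes, 4 of the 9 were past an adjusted p of 0.05 and higher in KCl (Slco4a1, Abcc1, Abcc3 and Abcb1b), beside 12.4% of all 13326 tested genes. None of the 9 was past it and lower, beside 10.5%, and in either direction the share over all genes was 22.9%. Abcc1 lost its call without control 4, KCl 1, KCl 2 or KCl 4, and with the replicate number as a block. Abcc5 was called with that block, with DESeq2 or without control 2. Without both replicate 4 libraries only Slco4a1 was called, beside 62 of 13525 tested genes. In CPM the KCl libraries all lay above the controls for 7 of the 9. Among all tested genes 38.5% had groups that did not overlap, which covers both directions and is not a like share. The 7 include Slco2b1, which passed the filter only through the KCl libraries and had 13 counts in control 2 and 12 in KCl 2. Nothing is read from these numbers of genes, since the 9 were chosen on this contrast.

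**Figure D2:**
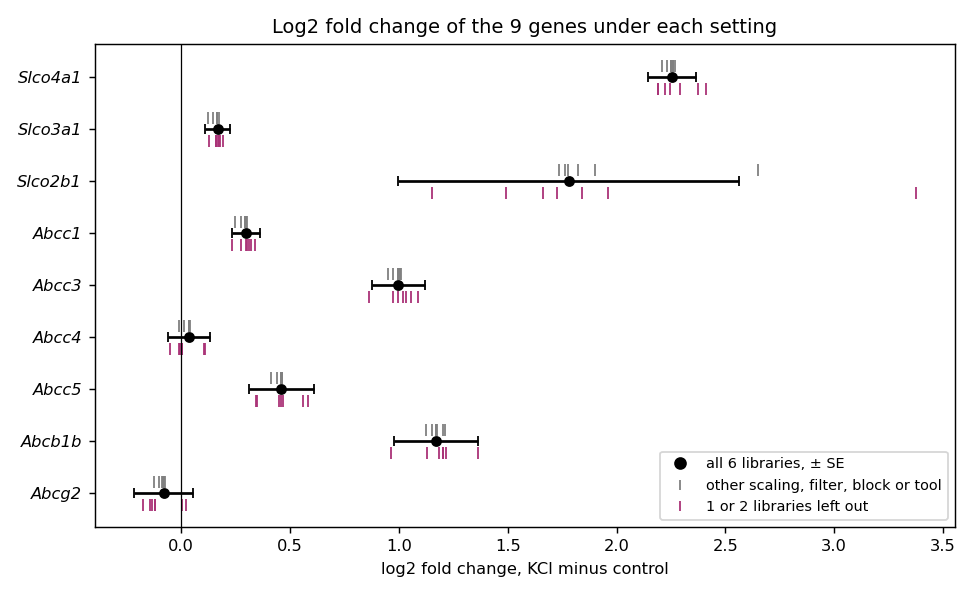
Log2 fold change of KCl minus control (horizontal axis) for each gene, with the value from all 6 libraries ± SE as a black point, other scalings, filters, tools and the replicate block as grey ticks, and omissions of 1 or 2 libraries as purple ticks. Slco4a1 ranged from 2.19 to 2.41 and Slco2b1 from 1.15 to 3.38, and the ticks of Abcc4 and Abcg2 lay on both sides of 0.

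Per length, 4 carriers stood close together at the top in control. By mean FPKM ± SD (n = 3) they were Abcc1 (12.9 ± 0.897), Abcc4 (11.9 ± 1.16), Slco4a1 (11.3 ± 1.58) and Abcc5 (9.25 ± 1.46), and each neighbouring pair in this order overlapped between libraries. Slco3a1 followed at 4.02 ± 0.0586, below all of these. Abcb1b (1.37 ± 0.361) and Abcc3 (1.35 ± 0.204) overlapped each other, above Abcg2 (0.653 ± 0.0721) and Slco2b1 (0.0326 ± 0.0366).

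In KCl the order was headed by Slco4a1 (53.2 ± 2.77), clear of Abcc1 (15.6 ± 0.161). Abcc5 (12.5 ± 1.55) and Abcc4 (12.0 ± 1.35) overlapped each other. Slco3a1 (4.45 ± 0.299), Abcb1b (3.04 ± 0.0871), Abcc3 (2.65 ± 0.0358), Abcg2 (0.610 ± 0.0942) and Slco2b1 (0.116 ± 0.0396) followed without overlap between neighbours. Slco4a1 moved from percentile 78.9 to percentile 95.6 of the 19162 genes by mean FPKM, and Abcb1b from 47.3 to 57.2.

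This order rests on the gene lengths behind the FPKM. The length implied by counts, library totals and FPKM was 6.91 kb for Slco4a1, against 4.80 kb of merged exons in GENCODE M21, and 15.9 kb against 10.7 kb for Abcc5. For Abcc1 (15.2 against 15.1 kb) and Abcc4 (5.73 against 6.39 kb) they were closer. With the GENCODE lengths, Slco4a1 came first in control at 16.2 CPM per kb, then Abcc5 at 13.7, Abcc1 at 13 and Abcc4 at 10.6. Abcc3 (1.72) then stood above Abcb1b (1.68) in control. In KCl Slco4a1 stayed first at 77.2, but Abcc5 (18.8) stood above Abcc1 (15.9). Differences between groups for the same gene do not depend on length.

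The summed FPKM of the 9 genes was 50.5, 54.1 and 53.9 in control 1, 2 and 4 and 107, 103 and 103 in KCl 1, 2 and 4. Slco4a1 alone accounted for 19.1% to 24.4% of this sum in control and 49.6% to 52.6% in KCl. The other 8 summed to 40.0 to 43.8 FPKM in control and 50.6 to 51.9 in KCl, and the 6 exporters to 35.9 to 39.7 and 45.8 to 47.3.

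**Figure D3:**
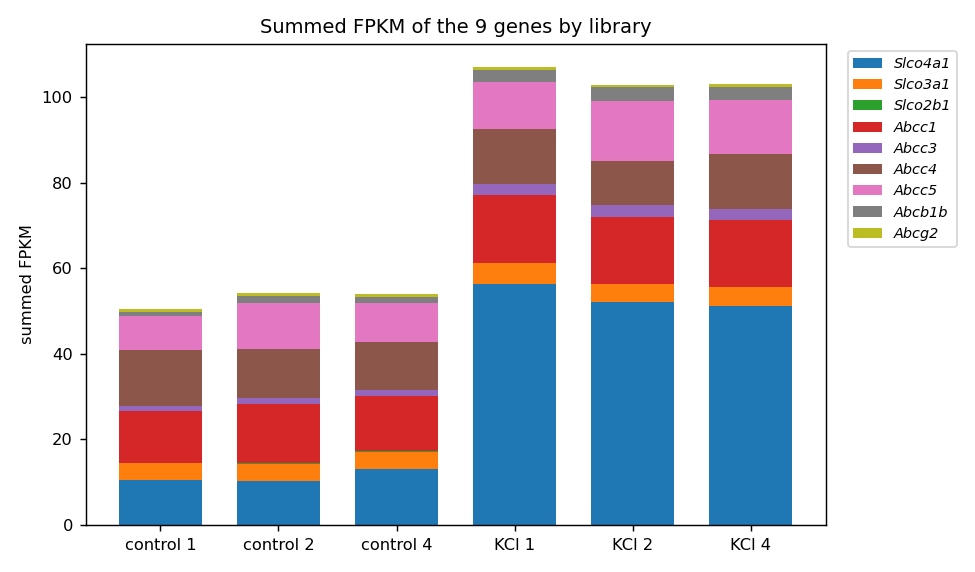
Summed FPKM of the 9 genes (vertical axis, from 0) in each of the 6 libraries, with stacked colours for the genes. The bars reach 50.5 to 54.1 in control and 103 to 107 in KCl, and the Slco4a1 segment grows from 19.1% to 24.4% of the bar in control to 49.6% to 52.6% in KCl.

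The wider carrier genes were listed by family, with earlier results of these data known. The SLC15 and SLC16 families were listed only in part. Of 51 tested genes of the SLCO, ABC and SLC organic ion families outside the 9, 10 rose, 7 fell and 34 did not pass (edgeR's quasi-likelihood test, Benjamini-Hochberg over all tested genes), with a median log2 fold change of -0.013. Over all tested genes 12.4% rose and 10.5% fell, with a median of -0.0045, and these shares are the background for each list that follows. These were the testable part of 69 genes found in the table out of 103 listed. With control 4 and KCl 4 left out, 1 of them passed (Cftr, whose test gives no support, as described below).

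Of the other SLCO genes 2 could be tested. Slco4c1, a carrier of digoxin and thyroid hormone and a relative of Slco4a1, rose by 0.58 ± 0.13 on the log2 scale (adjusted p = 0.0216, edgeR), from 13.7 to 20.6 CPM. Its adjusted p was 0.061 to 0.068 when control 1, control 4 or KCl 4 was left out. Slco5a1 stood at 9.77 and 5.40 CPM in control and KCl and did not pass (-0.85 ± 0.31). Slco2a1, the prostaglandin carrier, was too scarce to be tested, at 5, 3 and 2 counts in the controls and 0, 0 and 1 under KCl.

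Of 15 other ABCB, ABCC and ABCG genes, 2 rose, 3 fell and 10 did not pass (median 0.0096). Cftr, the ABCC-family member that works as a chloride channel and not as an exporter, rose from 1, 1 and 0 counts in the controls to 43, 46 and 45 counts under KCl (edgeR adjusted p = 0.00177). It passed the filter on low counts only through the KCl libraries, where it is high, so the test gives no support beyond these counts. The ratio of summed counts was 69.4, with an exact 95% interval from 18.8 to 579 for counting error alone, at a level of only 2.48 CPM in KCl. It was also the gene that passed without control 4 and KCl 4 (edgeR adjusted p = 0.0429). That call, and its place among the carriers that rose, give no support either. Abcb1a, the paralog of Abcb1b, rose by 1.20 ± 0.18, from 1.09 to 2.50 CPM (edgeR adjusted p = 0.00704). Abcg3, a rodent gene related to Abcg2, fell from 3.19 to 1.77 CPM. The peptide carrier of antigen presentation Tap1 (-0.33 ± 0.07) and Abcc10 (-0.29 ± 0.08) also fell, but 3 omissions (control 1, control 4 or KCl 4) cost Tap1 its call (edgeR adjusted p of 0.0628 to 0.0844), and all 6 did so for Abcc10 (0.0825 to 0.131). Abcb4, the phospholipid floppase beside the Abcb1 genes, stood at 0.82 and 1.01 CPM and did not pass, and the sterol exporter Abcg1 stood at 233 and 235 CPM (0.01 ± 0.06).

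Of 16 ABCA, ABCD, ABCE and ABCF genes, 4 rose, 1 fell and 11 did not pass (median 0.018). Abca9 rose by 2.03 ± 0.17, from 0.818 to 3.32 CPM, Abca13 by 0.73 ± 0.10, the phagocytosis-linked lipid carrier Abca7 by 0.50 ± 0.05 and the lysosome-related lipid carrier Abca3 by 0.35 ± 0.06. Abcd4, which acts in lysosomal cobalamin release, fell (-0.32 ± 0.09), but its edgeR adjusted p was 0.101 to 0.153 when any library other than control 1 was left out. The cholesterol exporter Abca1 stood at 49.7 and 36.5 CPM and did not pass (-0.44 ± 0.19).

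Of 18 SLC organic ion carriers, 3 rose, 3 fell and 12 did not pass (median -0.11). The endolysosomal peptide carriers moved apart. Slc15a3 fell from 165 to 111 CPM (-0.57 ± 0.05) and Slc15a4 rose from 33.0 to 43.2 (0.39 ± 0.06). The monocarboxylate carrier Slc16a7 rose by 0.82 ± 0.14. Slc22a15 rose, and Slc22a18 and Slc10a7 fell, but each missed the threshold in 4 to 6 of the 6 single-library omissions (edgeR adjusted p from 0.0591 to 0.0991).

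**Figure D4:**
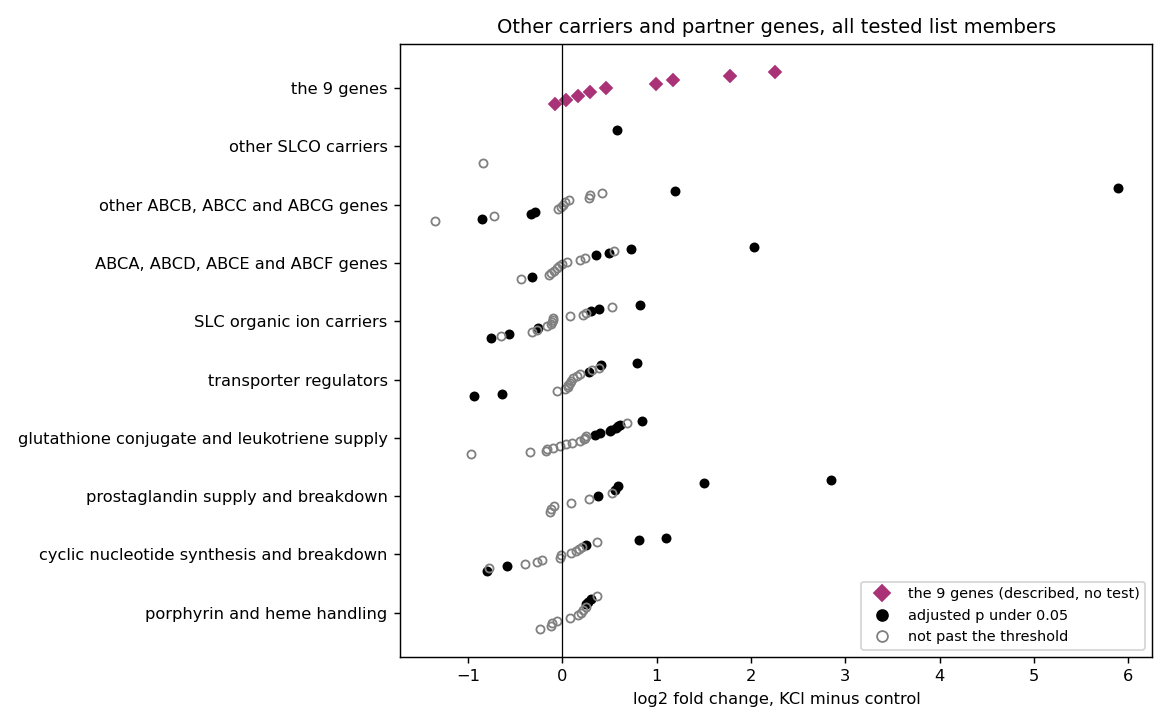
Log2 fold change of KCl minus control (horizontal axis) for the 9 genes and for every tested gene of the 4 carrier lists and 5 partner lists (rows). The 9 genes are diamonds without a test, and filled round points are past an adjusted p of 0.05 in edgeR's quasi-likelihood test over all genes. The carrier lists spread to both sides of 0, with Cftr far to the right (a fitted value that rests on 2 control counts), while the filled points of the glutathione, prostaglandin and porphyrin lists lie right of 0.

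Genes that regulate these carriers, or make and break down what they move, were counted in the same fit. Among the 77 that could be tested there were 22 that rose, 4 that fell and 51 that did not pass, and their median log2 fold change was 0.18, beside the 12.4% that rose, the 10.5% that fell and the median of -0.0045 over all genes. None passed without control 4 and KCl 4, where 55 of 130 carrier and partner genes had an unadjusted p under 0.05 in edgeR's test. The share over all genes at this unadjusted threshold is not given here, so nothing is read from the 55.

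Of 16 regulators, 3 rose, 2 fell and 11 did not pass (median 0.098). Ahr, the xenobiotic receptor that drives Abcg2 in other cells, fell from 48.6 to 25.4 CPM (-0.94 ± 0.11, edgeR adjusted p = 0.00446). Its controls lay at 44.1, 53.4 and 48.5 CPM and its KCl libraries at 22.2, 27.6 and 26.3. Its repressor Ahrr rose by 0.41 ± 0.07. The osmotic stress factor Nfat5 rose by 0.79 ± 0.10 and the lipid receptor Pparg fell by 0.64 on the log2 scale. Ppard rose by 0.28 ± 0.06 but missed the threshold without any 1 library but KCl 1 (edgeR adjusted p from 0.0511 to 0.0839). Nfe2l2, which encodes NRF2, stood at 261 and 282 CPM and did not pass (0.11 ± 0.09).

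Of 21 genes that supply glutathione conjugates and leukotrienes, substrates of Abcc1, 8 rose, 0 fell and 13 did not pass (median 0.24). The transferases Gstm1 (0.84 ± 0.12), Mgst2 (0.61 ± 0.07) and Gstp1 (0.52 ± 0.07) and the glutathione synthesis gene Gclc (0.40 ± 0.06) rose, with Gclm, Mgst1, Mgst3 and Gsr. Mgst1 was lost in 4 and Gsr in 5 of the 6 single-library omissions (edgeR adjusted p from 0.0534 to 0.122). The leukotriene C4 synthase gene Ltc4s (0.04 ± 0.10), Alox5 (-0.10 ± 0.15) and Alox5ap (0.11 ± 0.09) did not pass.

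Of 11 prostaglandin genes, 5 rose, 0 fell and 6 did not pass (median 0.37). The phospholipase Pla2g4a (0.59 ± 0.07), which frees arachidonate, and the cyclooxygenase Ptgs2 (from 1.92 to 5.45 CPM) rose, as did Ptgr1 (0.56 ± 0.07) and Hpgd (from 0.196 to 1.55 CPM), which break prostaglandins down. Hpgd, at 8, 3 and 1 counts in the controls and 29, 28 and 27 in KCl, also passed the filter only through the KCl libraries. The Hpgd call, 1 of the 5, gives no support beyond these counts. Cbr1 rose by 0.37 ± 0.09 but missed the threshold without control 1, control 2, control 4 or KCl 4 (edgeR adjusted p from 0.0676 to 0.0865).

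Of 16 genes of cyclic nucleotide synthesis and breakdown, 3 rose, 2 fell and 11 did not pass (median 0.039). The adenylyl cyclases Adcy3 (1.10 ± 0.20) and Adcy7 (0.25 ± 0.05) and the phosphodiesterase Pde7b (0.81 ± 0.14) rose. Adcy7 missed the threshold without control 4 or KCl 1 (edgeR adjusted p from 0.0504 to 0.0599). The phosphodiesterases Pde3b and Pde4b fell by 0.80 and 0.59 on the log2 scale. Of 13 genes of porphyrin and heme handling, 3 rose, 0 fell and 10 did not pass (median 0.20). They were Alas1, the entry enzyme of heme synthesis (0.30 ± 0.07), Ppox (0.25 ± 0.06) and the heme carrier Slc48a1 (0.27 ± 0.07), and each missed the threshold in 5 or 6 of the 6 single-library omissions (edgeR adjusted p from 0.05 to 0.103).

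The nearest genes on either side of each carrier with a mean of at least 1 CPM were also read. Of 18 such neighbours, 2 rose, 3 fell and 13 did not pass. Beside Slco4a1, Cables2, 183 kb away, stood at 56.4 and 64.7 CPM in control and KCl (0.20 ± 0.06) and Mrgbp, 106 kb away, at 16.5 and 19.7 (0.26 ± 0.14), and neither passed. The 2 that rose were Abcb1a, 49.6 kb from Abcb1b, and Herc3, 136 kb from Abcg2 (0.48 ± 0.06). Cyp2ab1 beside Abcc5 (-1.08 ± 0.16), Ube2v2, 1076 kb from Abcc1 (-0.35 ± 0.09), and Cldn10, 81.7 kb from Abcc4 (-0.82 ± 0.23), fell. Ube2v2 lost its call in all 6 single-library omissions (edgeR adjusted p from 0.0529 to 0.142) and Cldn10 in 5, all but control 2 (0.0531 to 0.158). None of the 5 passed without both replicate 4 libraries (0.0763 to 0.238).

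Markers of cell types that such cultures can hold also differed between the groups. Of 10 macrophage markers, 3 rose and 0 fell, and their sum was 1030 to 1310 CPM in control and 1440 to 1590 in KCl. Of 10 neutrophil markers, 3 rose and 0 fell, with sums of 14100 to 16000 and 17100 to 24300 CPM. Of 10 dendritic cell markers, 4 fell and 0 rose (2460 to 3010 and 1650 to 2130 CPM), and of 8 eosinophil markers, 5 fell and 0 rose (2350 to 2580 and 961 to 1120 CPM). Of 8 myeloid identity genes, 5 rose (Lyz2, Cebpa, Csf2ra, Spi1 and Cebpb), and Lyz2, the macrophage and granulocyte lysozyme, went from 5446 to 9934 CPM. The summed basophil and mast cell markers overlapped between groups (286 to 330 and 259 to 294 CPM), while 1 of 6 fell (Mcpt8, from 132 to 81.6 CPM) and 0 rose. The summed stromal and endothelial markers overlapped too (82.0 to 91.7 and 81.8 to 92.8 CPM), while 1 of 8 rose (Col1a1) and 0 fell. Of 5 lymphocyte markers, 1 rose (Ms4a1, from 2.03 to 3.61 CPM) and 0 fell. The Ms4a1 call was lost without control 2, control 4 or KCl 4, and the Col1a1 call without control 1, control 2, control 4 or KCl 4. Without KCl 1 or without KCl 2, 1 gene of the stromal and endothelial list was called higher. These markers were named after their values were seen. The counts of called markers depended on single libraries, with 1 to 5 neutrophil, 1 to 4 macrophage and 1 to 6 dendritic cell calls and 3 to 5 myeloid identity genes called higher when 1 library was left out (1 was called lower without control 1), while the eosinophil count was 5 each time. Without both replicate 4 libraries the neutrophil, macrophage, dendritic cell and eosinophil counts were 0, 1, 0 and 4, and those of the other lists 0. No marker in the table was at 0 in all 6 libraries. The part of these shifts in the carrier levels was not tested, and in whole cultures fewer cells of a type and less RNA per cell cannot be told apart.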

How the data were processed

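RNA sequencing of 6 libraries was used, with groups from the treatment labels and replicate numbers from the titles. Per the submitters' processing notes, the authors used mm10 with HISAT2 2.0.4, with StringTie 1.3.3b and with edgeR. Which counting program and strand setting were used is not given in the sources used here. The authors deposited, for each gene and library, a read count (whole numbers) and FPKM. FPKM was used for levels and in no test. Counts were fitted for the whole table in R 4.3.3 with edgeR 4.0.16 (filterByExpr with minimum count 10 and minimum total 15, TMM scaling, robust quasi-likelihood test, 2-sided, Benjamini-Hochberg over 13326 genes, threshold 0.05). SEs are the log2 fold change over the square root of F, and approximate intervals are normal. Of the gene IDs, 19049 matched GENCODE M21.

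The members and lists were chosen with earlier results of these data known. Named were all 9 members, up to 4 called genes per list with a mean of at least 1 CPM by smallest p, the neighbours, and Abcb1a, Abcb4, Abcg1, Abca1, Slco2a1, Slco4c1, Nfe2l2, Ahr and Nfat5 (1 further gene is not reported here). Slco5a1, Abcc10, Abcd4, Slc22a15, Slc10a7, Ppard, Hpgd, Adcy7, Gclm, Mgst1, Mgst3, Gsr, Ltc4s, Alox5 and Alox5ap were named after their values were seen. Alternatives were RLE and upper-quartile scaling, a mean CPM of 5 or more, no filter, a replicate block, DESeq2 1.42.0, limma-voom (limma 3.58.1) and omissions of libraries. The GENCODE length was added after the data were seen.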

Additional observations from a re-analysis of the deposited data

How the results depend on the processing

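The count of called genes was 3057 with all 6 libraries, 1678 with the replicate block, 1439 to 2851 when 1 library was left out (lowest without control 4, then 1505 without KCl 4) and 62 without both replicate 4 libraries. Other carriers called higher numbered 10, 8 to 9 with 1 library left out and 1 without both, Cftr being among them each time. Those called lower numbered 7, 4 with the replicate block, 2 to 6 with 1 left out (2 without control 4 or KCl 4, 4 without control 1 or KCl 1) and 0 without both. Partners called higher numbered 22 (Hpgd included), 14 to 19 with 1 left out (14 without control 4) and 0 without both. Partners called lower numbered 4, 4 to 5 and 0. Deviations from the group means correlated at 0.0227, -0.0555 and -0.889 between libraries 1, 2 and 4 of the groups. These values cannot decide whether replicate numbers pair the samples. Control 4 and KCl 4 together track the average of the other 4 libraries, which ties the deviations to one another. Of the 43 called carrier and partner genes, none changed sign in the 14 settings. In all 6 single-library omissions 28 passed, and without both replicate 4 libraries 1 did (Cftr). Slco2b1 was 2.65 with limma-voom and could not be fitted with a mean CPM of at least 5. Abcc4 also turned to -0.01 with upper-quartile scaling, which shifted the median of all genes to -0.05, and without control 4 or KCl 4. Depth limits Slco2b1, Slco2a1 and Cftr, whose groups hold few counts.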
